A study of Mus musculus with 24 samples.

Results

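Interferon-stimulated genes were examined as a group of 35 named genes in mouse lung. The list was given by name, and for each gene the probe set annotated to that gene alone with the highest mean signal over all samples was used. Of the 35 genes, 32 had such a probe set, of 18193 genes with one in the whole series, and 30 passed the filter on low signal, of 14485 genes tested. Mx1 and Mx2 were under the filter, and Isg15, Ifi44 and Oas1g were not analysed here.

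The study set wild-type lung beside lung of an IL-13 KO mouse strain, after HDM or after PBS. These 4 groups held 3 RNA samples each, 12 in all, and every sample was run on 2 arrays (set A and set B), 24 arrays in total. PBS was the control treatment within each genotype. All groups were otherwise labelled alike, except that the title of a set B array in each wild-type group carries an extra letter. Background strain, the form of the Il13 allele, age, sex, dose, route and the number of treatments, and what HDM stands for, are not given in the sources used here, and whether replicates are different animals is not labelled. The p-values below therefore reflect only how these samples scatter, which may be technical.

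Interferons are secreted when cells detect foreign nucleic acid or, for interferon gamma, when T cells and NK cells are activated. Type I interferons signal through JAK kinases to a complex that holds STAT2 and IRF9 and binds the interferon-stimulated response element, whereas the signal of interferon gamma ends at the gamma-activated site. Their target genes encode antiviral enzymes, nucleic acid sensors, GTPases that act on vacuoles holding microbes, and the signalling proteins themselves, and in the lung they are known chiefly for defence against respiratory viruses.

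Promoter sequences are shown for members that moved in opposite directions and for 2 IFIT genes that were not called in any comparison, because all 5 carry the same letter pattern. The sequences are from RefSeq on GRCm38.p6 and are written 5′ to 3′ on the strand of the gene; capitals mark GAAA, any 2 bases and GAAA again, the core of the interferon-stimulated response element, or its reverse complement, and overlapping matches run together. Oas1a and Igtp rose with HDM in the IL-13 KO, Rsad2 fell, and Ifit1 and Ifit3 were not called.
Oas1a, chr5:120907526-120907585, minus strand: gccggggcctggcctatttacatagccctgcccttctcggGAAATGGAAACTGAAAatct
Igtp, chr11:58199496-58199555, plus strand: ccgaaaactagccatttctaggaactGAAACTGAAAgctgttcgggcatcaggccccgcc
Rsad2, chr12:26456538-26456597, minus strand: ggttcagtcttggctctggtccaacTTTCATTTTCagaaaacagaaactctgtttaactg
Ifit1, chr19:34640769-34640828, plus strand: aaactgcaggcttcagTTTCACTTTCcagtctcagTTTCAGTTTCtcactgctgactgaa
Ifit3, chr19:34583365-34583424, plus strand: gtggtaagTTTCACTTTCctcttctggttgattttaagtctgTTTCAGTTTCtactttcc

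Of the 35 members, 25 were matched in the RefSeq promoter table by symbol. Within the 250 bases before the start, this core, GAAA spaced by 2 bases from GAAA, was found on either strand in 14 of these 25 members (56%) and in 936 of all 27025 genes of the table (3.46%). TTCNNNGAA, the core of the gamma-activated site, which reads the same on both strands, was found in 4 members (Bst2, Ifit2, Igtp and Oas1a, 16%) and in 8.13% of all genes. Of the 14 members with GAAA spaced by 2 bases from GAAA, 12 were tested on the arrays. In the IL-13 KO, 2 of them were called higher and 1 lower with HDM, where 6.6% of all tested genes were called higher and 6.0% lower, with log2 differences from -1.24 to 0.74. In wild type, where 11.9% of all genes were called, none was, and their log2 differences ran from -0.44 to 0.33, with 8 of 12 above 0. A match is a description of the letters in this window, not of a site in use.

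The values were linear array intensities that the authors had scaled alike on every array, and differences are given as log2(intensity + pseudocount). Median intensity ranged from 69.5 to 77.7 on set A and from 83.5 to 93.7 on set B, and Spearman correlations within a group from 0.962 to 0.980 and from 0.885 to 0.926. Il13, the targeted gene, read 4.65, 12.1 and 5.05 in wild-type PBS, 29.9, 16.0 and 15.5 in wild-type HDM, 3.30, 9.45 and 8.66 in KO PBS and 8.71, 13.6 and 15.5 in KO HDM, all under the filter, so it does not check the labels. Lung epithelial markers were high in every sample (10 genes, summed signal from 34672 to 54257). Skeletal muscle markers (10 genes) summed to 2933 in replicate 2 of wild-type PBS and to 1838 and 6095 in replicates 1 and 2 of wild-type HDM. The other 9 samples had sums of 267 to 528. The main wild-type results are given with and without these 3 samples. Counts of samples that do not overlap are given with them only. Bulk tissue cannot tell a change in the number of cells of a type from a change in RNA per cell.

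The first question was which interferon-stimulated genes differed with HDM in wild-type lung. There was no common direction: Oas2 and Zbp1 rose, Ifit2 fell, and the other 27 tested members did not pass the test. This was 3 of 30 members (10%), where 11.9% of all 14485 tested genes were called (limma with Benjamini-Hochberg adjustment at 0.05), 6.02% higher and 5.92% lower. Zbp1, among these 3, passed the filter only through its HDM groups, as given below. The median log2 difference of the members was -0.05, against -0.0034 over all genes, and 14 of 30 were above 0. At an unadjusted p under 0.05 there were 8 members, against 24.8% of all genes.

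In the IL-13 KO, more members were called, again in both directions. Zbp1, Oas1a, Igtp and Iigp1 rose with HDM, and Rsad2 and Ifit2 fell. This was 6 of 30 members (20%) against 12.6% of all tested genes. In single directions it was 4 higher against a background of 6.6% and 2 lower against 6.0%. Zbp1 and Ifit2 were called in both genotypes, each in the same direction. The count of 4 higher includes Zbp1, which passed the filter only through its HDM groups. The median log2 difference was 0.17 against 0.0077 over all genes, with 18 of 30 above 0. At an unadjusted p under 0.05 there were 6 members, against 26.4% of all genes.

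**Figure D1:**
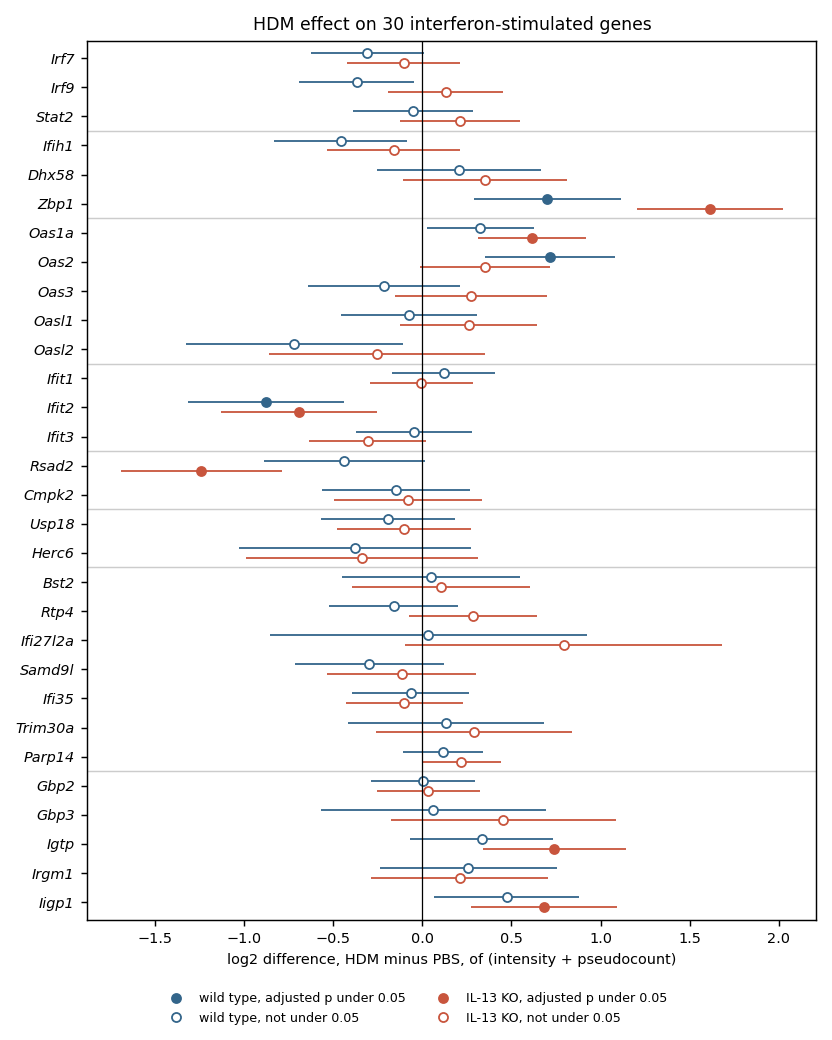
Log2 difference of HDM minus PBS (x axis) for the 30 tested interferon-stimulated genes (y axis, grouped by role) in wild type (blue) and IL-13 KO (red); points are limma estimates, bars are 95% confidence intervals, and filled points have an adjusted p under 0.05. The furthest points are both in the IL-13 KO, Zbp1 at 1.61 and Rsad2 at -1.24, and most other intervals cross 0.

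Among the transcription factors of the pathway, none of 3 was called with HDM in either genotype. Irf7, the factor that drives the type I interferon genes themselves, read 141, 137 and 122 in wild-type PBS replicates 1 to 3, 113, 101 and 105 in wild-type HDM, 207, 161 and 184 in KO PBS and 192, 138 and 187 in KO HDM. All 3 wild-type HDM samples lay below all 3 wild-type PBS samples and below all 3 KO HDM samples. The HDM difference in wild type was -0.31 (adjusted p = 0.25).

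Irf9, a DNA-binding partner of STAT2, had group means of 168 ± 30.9, 129 ± 20.9, 157 ± 10.6 and 173 ± 7.51 (SD, n = 3 each; the wild type after PBS and after HDM, then the KO after PBS and after HDM, the order used from here on). Its HDM difference was -0.37 in wild type (adjusted p = 0.17) and 0.13 in the KO (adjusted p = 0.66). Stat2 stayed between group means of 93.0 and 110.

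Of the 3 nucleic acid sensors, Zbp1 was called in both genotypes. Zbp1 binds nucleic acid in the Z form and can start necroptosis. It read 36.3, 29.1 and 32.2 in wild-type PBS and 68.4, 53.2 and 51.0 in wild-type HDM, and 23.1, 18.0 and 24.9 in KO PBS and 72.9, 91.5 and 80.1 in KO HDM. HDM and PBS samples did not overlap in either genotype, the KO HDM samples were above all wild-type HDM samples, and the KO PBS samples were below all wild-type PBS samples. The log2 difference was 0.70 in wild type (SE 0.19, 95% interval 0.29 to 1.11, adjusted p = 0.034) and 1.61 in the KO (SE 0.19, 1.20 to 2.02, adjusted p = 0.0001). Both PBS means, 32.5 and 22.0, were under the filter of 33.7 that applies to the mean over all samples, so Zbp1 was tested only through its HDM groups, and the size of its difference rests on low PBS signals.

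The wild-type call of Zbp1 was lost in 11 of 22 other settings, among them the 6 wild-type samples alone (adjusted p = 0.10) and no filter on low signal (adjusted p = 0.052), and without the 3 samples with muscle signal its adjusted p was 0.45. The KO call held in all 22, with an adjusted p from 4.7e-05 to 0.0012. Ifih1, which encodes the RNA sensor MDA5, read 211, 224 and 275 in wild-type PBS and 139, 207 and 170 in wild-type HDM, which do not overlap, with a difference of -0.46 that did not pass (adjusted p = 0.14). Dhx58, which encodes the related protein LGP2, differed by 0.21 and 0.35 (adjusted p = 0.67 and 0.36).

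The oligoadenylate synthetases make the messenger that activates RNase L, which degrades RNA in infected cells. Of 5 tested synthetases and relatives, Oas2 was called in wild type and Oas1a in the KO. Oas2 read 46.3, 45.5 and 53.8 in wild-type PBS and 80.2, 91.2 and 81.3 in wild-type HDM, without overlap, and 73.6, 88.1 and 56.1 in KO PBS and 92.9, 83.7 and 104 in KO HDM, which overlap. The difference was 0.72 in wild type (SE 0.17, 95% interval 0.35 to 1.08, adjusted p = 0.015) and 0.35 in the KO (SE 0.17, adjusted p = 0.23).

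The KO PBS samples of Oas2 were all above the wild-type PBS samples, a difference of 0.50 that did not pass (adjusted p = 0.55). Oas1a read 283, 292 and 203 in wild-type PBS and 300, 349 and 322 in wild-type HDM, and 218, 224 and 199 in KO PBS and 328, 308 and 359 in KO HDM. HDM samples were above PBS samples in both genotypes without overlap. The log2 difference was 0.33 in wild type (adjusted p = 0.20) and 0.62 in the KO (SE 0.14, 95% interval 0.32 to 0.92, adjusted p = 0.012).

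Oas3, Oasl1 and Oasl2 were not called in either genotype. Oasl2, whose protein enhances RNA sensing, had the widest scatter of these, with 79.9, 54.5 and 24.3 in wild-type HDM against 78.8, 107 and 69.1 in wild-type PBS, a difference of -0.72 (adjusted p = 0.15). Wild-type HDM replicate 3 was its lowest sample of all 12. Without the 3 samples with muscle signal, which leaves that replicate as the only wild-type HDM sample, none of Oas2, Zbp1 and Ifit2 was called in wild type (adjusted p = 0.26, 0.45 and 0.28), and the 2 members called were Oasl2 and Gbp3; the lone sample is then assumed to vary like the other groups.

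The IFIT proteins bind the ends of foreign RNA and block its translation. Their 3 genes did not move alike. Ifit2 read 74.4, 78.5 and 60.4 in wild-type PBS, 31.0, 37.3 and 38.1 in wild-type HDM, 75.9, 69.5 and 98.2 in KO PBS and 61.2, 35.1 and 48.1 in KO HDM. The HDM samples lay below the PBS samples in both genotypes. It fell by 0.88 on the log2 scale in wild type (SE 0.20, adjusted p = 0.014) and by 0.69 in the KO (SE 0.20, adjusted p = 0.045), and the KO call was lost in 15 of 22 other settings, with an adjusted p of up to 0.19.

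Ifit1 held its level, with group means of 129 ± 15.8, 140 ± 15.5, 123 ± 8.40 and 122 ± 4.07. Its 95% intervals for the HDM difference were within 2-fold in both genotypes. Ifit3 read 169, 161 and 177 in KO PBS and 137, 128 and 141 in KO HDM, which do not overlap, with a difference of -0.31 that did not pass (adjusted p = 0.25).

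Rsad2 encodes viperin, a radical SAM enzyme that makes an RNA chain terminator. It read 242, 353 and 256 in wild-type PBS, 224, 232 and 165 in wild-type HDM, 553, 385 and 495 in KO PBS and 206, 253 and 144 in KO HDM. On this probe set the KO PBS samples were above every other sample, and the HDM samples of the 2 genotypes overlapped. In the KO it fell by 1.24 on the log2 scale (SE 0.21, adjusted p = 0.0018), and this call held in all 22 other settings with an adjusted p from 0.00026 to 0.012.

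Both other Rsad2 probe sets that passed the filter were also called lower in the KO, at -1.01 (adjusted p = 0.001) and -1.18 (adjusted p = 0.0027). In wild type the main probe set differed by -0.44 (adjusted p = 0.26) and the others by -0.08 and -0.12. On both others all KO HDM samples lay below all wild-type HDM samples. These genotype differences, -0.46 and -0.48, did not pass (adjusted p = 0.35 and 0.54). Nor did their interactions, -0.93 and -1.06 (adjusted p = 0.30 and 0.51). Cmpk2, which lies next to Rsad2 and encodes a nucleotide kinase, had group means of 58.2, 50.8, 60.7 and 57.0 and was not called. The actin 5′/3′ signal ratio, a measure of RNA integrity, was 0.748 to 0.854 in KO PBS and 0.464 to 0.656 in KO HDM on set A, without overlap, while the Gapdh ratio overlapped (1.05 to 1.20 and 1.04 to 1.16). In wild type the actin ratio on set A was 0.409 to 0.898 after PBS and 0.695 to 0.832 after HDM, which overlap. The part of RNA quality in the results of either genotype was not tested.

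**Figure D2:**
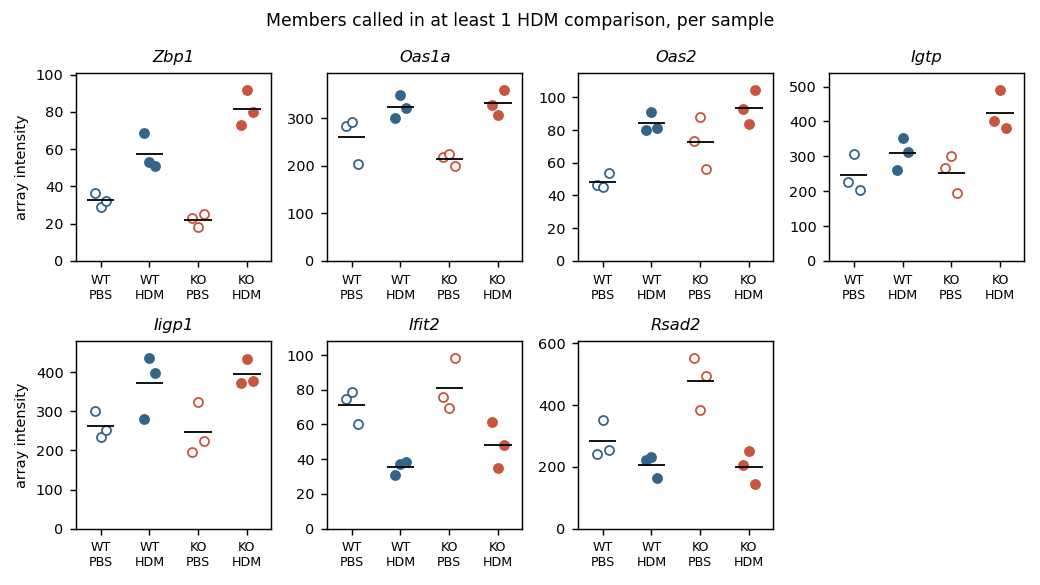
Array intensity (y axis, linear, from 0) in every sample for the 7 interferon-stimulated genes called in at least 1 HDM comparison; open points are PBS, filled points HDM, blue wild type and red IL-13 KO, and bars are means of 3 samples. Zbp1 rises with HDM in both genotypes, from a mean of 22.0 to 81.5 in the KO, and Rsad2 is highest in KO PBS, at a mean of 478.

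The ISG15 system attaches the ubiquitin-like ISG15 to other proteins. Usp18, which removes ISG15 and also dampens type I interferon receptor signalling, and Herc6, the mouse ISG15 ligase, were tested and not called. Their HDM differences were -0.19 and -0.38 in wild type and -0.10 and -0.34 in the KO. The intervals were wide for Herc6 (SE 0.30), whose KO PBS samples ran from 172 to 452. The 3 other tested Herc6 probe sets had positive differences, 0.08, 0.24 and 0.16 in wild type and 0.33, 0.40 and 0.68 in the KO, none of them called.

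The membrane and other effectors were Bst2 (tetherin, which holds budding virus at the cell surface), Rtp4, Ifi27l2a, Samd9l, Ifi35, Trim30a and Parp14 (an ADP-ribosyltransferase). None of these 7 was called with HDM in either genotype. Parp14 had the smallest scatter on its probe set with the highest mean: 206, 200 and 205 in wild-type PBS, 221, 219 and 225 in wild-type HDM, 207, 205 and 222 in KO PBS and 243, 238 and 260 in KO HDM. HDM samples were above PBS samples in both genotypes, by 0.12 and 0.22 (adjusted p = 0.60 and 0.22). Its other tested probe set went the opposite way in wild type, with all HDM samples lower (-0.47, adjusted p = 0.28), and differed by 0.20 in the KO. The widest scatter was that of Ifi27l2a, with 656, 340 and 207 in wild-type PBS and 198, 385 and 654 in wild-type HDM.

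Replicate spread was like that of other genes: the median within-group SD was 0.23 on the log2 scale for the members and 0.23 for all tested genes, from 0.047 for Parp14 to 0.66 for Ifi27l2a. No sample was high or low for all members. The most uneven counts were wild-type HDM replicate 1, the lowest of its group for 16 of 30 members, and KO HDM replicate 2, the lowest for 15 and the highest for 11. For Ifi35, 1 of its 2 other probe sets was called lower in wild type (-0.58, adjusted p = 0.023), while the probe set with the highest mean differed by -0.06 and the third by 0.23.

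**Figure D3:**
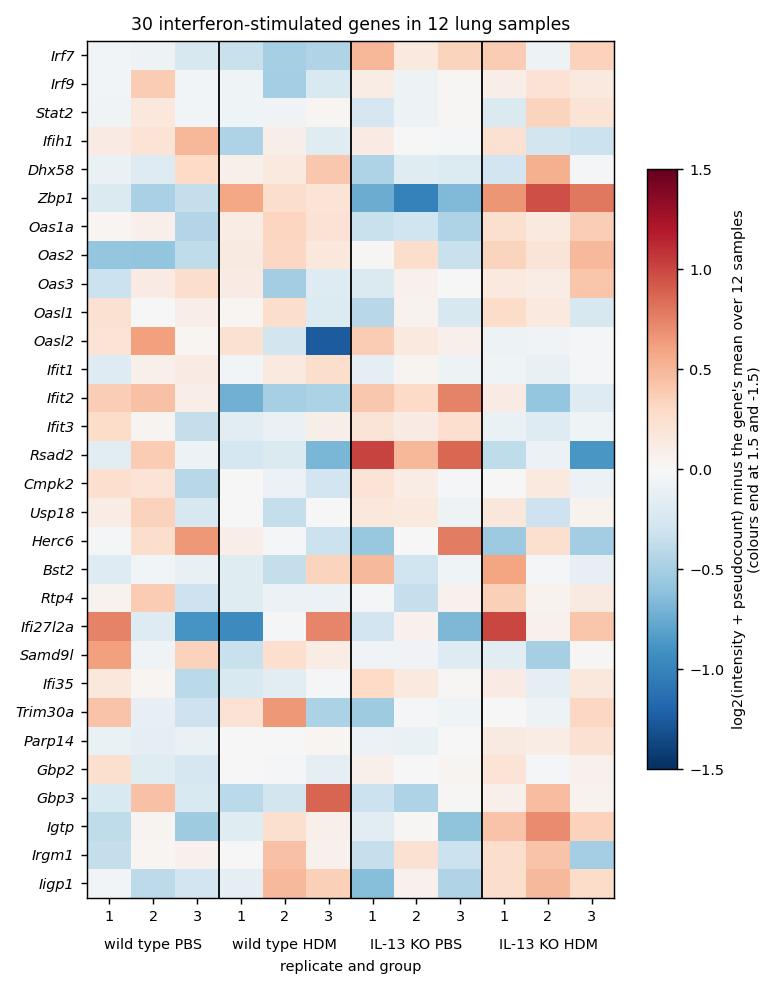
Each cell shows log2(intensity + pseudocount) minus the gene's mean over 12 samples, for the 30 tested interferon-stimulated genes (y axis) in the 12 samples (x axis, by group and replicate), from blue (low) to red (high). No column is of 1 colour throughout, Rsad2 is high in the 3 KO PBS samples, and Zbp1 is high in all 6 HDM samples.

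The interferon-induced GTPases assemble on vacuoles that hold microbes and are driven mainly by interferon gamma. All 5 tested had a positive difference in both genotypes, though Gbp2 by only 0.00 and 0.03. By contrast, both tested genes of the ISG15 system, and both of viperin and its neighbour, had negative differences in both genotypes. None of the 5 GTPases was called in wild type, and Igtp and Iigp1 were called in the KO. Igtp read 226, 307 and 204 in wild-type PBS, 261, 352 and 312 in wild-type HDM, 266, 302 and 193 in KO PBS and 402, 490 and 380 in KO HDM. The KO HDM samples were above all samples of the other groups. The difference was 0.33 in wild type (SE 0.19) and 0.74 in the KO (SE 0.19, 95% interval 0.34 to 1.14, adjusted p = 0.021).

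Iigp1 read 301, 233 and 253 in wild-type PBS, 280, 436 and 397 in wild-type HDM, 196, 324 and 224 in KO PBS and 372, 434 and 377 in KO HDM. The groups overlapped in wild type, through wild-type HDM replicate 1, and did not overlap in the KO. The difference was 0.47 in wild type (adjusted p = 0.16) and 0.68 in the KO (SE 0.19, adjusted p = 0.035), and the KO call was lost in 8 of 22 other settings, with an adjusted p of up to 0.15. Its other probe set was called higher in both genotypes (0.80, adjusted p = 0.034, and 0.76, adjusted p = 0.041).

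Gbp2 gave different answers by probe set. The one with the highest mean stayed flat, with group means of 234, 232, 250 and 256 and differences of 0.00 and 0.03. The other probe set had group means of 114, 172, 135 and 232, with differences of 0.57 in wild type (adjusted p = 0.078) and 0.78 in the KO (adjusted p = 0.015). Gbp3 and Irgm1 were not called (0.06 and 0.26 in wild type, 0.45 and 0.21 in the KO).

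The Mx GTPases, classical markers of type I interferon, were under the filter. Mx1 read 23.6, 16.1 and 19.9 in wild-type PBS, 27.3, 48.8 and 39.1 in wild-type HDM, 26.0, 19.1 and 18.6 in KO PBS and 34.0, 35.8 and 29.5 in KO HDM. HDM samples were above PBS samples in both genotypes. Fitted without a filter, the differences were 0.74 (adjusted p = 0.086) and 0.51 (adjusted p = 0.24). Mx2 had a mean of 9.78 over all samples.

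Counted by samples that do not overlap, 4 members had all wild-type HDM samples above all wild-type PBS samples, where 13.3% of all tested genes did, and 5 had them all below, where 14.5% did. Among the 5 that were lower were Irf7, Irf9 and Ifih1, together with Ifit2 and Rsad2. In the KO, 8 members were higher without overlap (background 17.2%) and 4 lower (background 17.3%). The higher ones were Zbp1, Oas1a, Oas3, Ifi27l2a, Parp14, Gbp3, Igtp and Iigp1, and the lower ones Oasl2, Ifit2, Ifit3 and Rsad2.

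The second question was whether the HDM effect differed between the genotypes. Tested directly as an interaction, no member was called with limma, where 0.2% of all tested genes were, and 3 members had an unadjusted p under 0.05, against 6.44% of all genes. These were Zbp1, at 0.91 (KO effect minus wild-type effect, SE 0.27, 95% interval 0.33 to 1.49, adjusted p = 0.55), Rsad2, at -0.80 (SE 0.30, -1.44 to -0.16, adjusted p = 0.76), and Irf9, at 0.50 (adjusted p = 0.83). For 24 of 30 members the 95% interval of the interaction lay within 2-fold in either direction. The interaction was positive for 24 of 30 members, with a median of 0.18 against 0.022 over all genes, which is a description only because the members share their samples. The calls present in 1 genotype and missing in the other (Oas2, and Oas1a, Igtp, Iigp1 and Rsad2) were therefore not shown to differ between genotypes.

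Direct comparison of the genotypes gave no called member. After PBS, 0.0345% of all tested genes were called by limma, and no member was, with 4 members at an unadjusted p under 0.05, against 7.73% of all genes. The 3 with the smallest p were Rsad2, higher in the KO by 0.74 (95% interval 0.29 to 1.19, adjusted p = 0.44), Irf7, by 0.44 (adjusted p = 0.55), and Oas2, by 0.50 (adjusted p = 0.55). For each of these 3 genes all KO PBS samples were above all wild-type PBS samples.

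After HDM, 0.953% of all tested genes were called by limma and again no member, with 4 at an unadjusted p under 0.05, against 10.2% of all genes. Irf7 came closest, higher in the KO by 0.65 (SE 0.15, 95% interval 0.33 to 0.96, adjusted p = 0.074), with KO HDM samples from 138 to 192 and wild-type HDM samples from 101 to 113. Over the 22 other settings its adjusted p ran from 0.029, without KO HDM replicate 2, to 0.42, without the 3 samples with muscle signal, and it passed in 2 of them. Irf9 was higher in the KO by 0.42 (adjusted p = 0.38), Igtp by 0.45 (adjusted p = 0.49) and Zbp1 by 0.46 (adjusted p = 0.49). The 95% interval lay within 2-fold for 28 of 30 members after PBS and for 29 of 30 after HDM. The HDM comparisons and these genotype comparisons share samples, so their values for a member are not independent.

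Around the members, 170 further genes of the interferon pathway were listed by role, and 113 of them were tested. With HDM, 17 rose and 3 fell in wild type (17.7% called, against 11.9% of all genes), and 23 rose and 3 fell in the KO (23.0% against 12.6%). The genes that rose include Cxcl9 in both genotypes and Socs1 in wild type, which passed the filter only through their HDM groups. Without the 3 samples with muscle signal, 1 wild-type HDM sample is left. The 17 then differed by 0.53 (B2m) to 2.26 (Sting1) in wild type and the 3 by -0.36 (Ifitm2) to -0.45 (Tdrd7). That sample was also in the full fit, so these values are no independent check. These lists, like the members, were drawn up with results of these data known.

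The ligands gave little signal. Of 18 listed, 2 were tested (Ifnab and Ifnz) and neither was called. Ifnb1 was under the filter, with group means of 35.5, 33.7, 27.4 and 30.6, and Ifng, the gene of interferon gamma, was too, with 13.3, 18.7, 15.6 and 20.9. Fitted without a filter, their HDM differences were 0.01 and 0.03 for Ifnb1 and 0.38 and 0.33 for Ifng, none of them called.

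Of 6 receptor genes, 1 was called. Ifngr2, the signalling chain of the interferon gamma receptor, read 149, 132 and 119 in wild-type PBS, 281, 237 and 309 in wild-type HDM, 129, 113 and 136 in KO PBS and 200, 173 and 211 in KO HDM. It rose by 1.01 in wild type (adjusted p = 0.00035) and 0.60 in the KO (adjusted p = 0.013), with no overlap in either. Ifngr1, the binding chain, differed by -0.29 and 0.00, and Ifnar1 and Ifnar2, the type I receptor chains, by 0.11 and 0.43 in wild type and -0.01 and 0.32 in the KO, none of them called.

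Of 9 genes of JAK-STAT signalling and its inhibitors, 2 rose in wild type and none was called in the KO. Both that rose are feedback inhibitors. Socs1 read 20.3, 6.29 and 23.7 in wild-type PBS, 57.4, 50.5 and 72.1 in wild-type HDM, 41.9, 29.2 and 24.6 in KO PBS and 33.0, 46.5 and 49.8 in KO HDM. The wild-type difference was 1.57 (adjusted p = 0.0046) and the KO difference 0.37 (adjusted p = 0.52), and the difference between them did not pass (-1.20, adjusted p = 0.76). Both PBS means of Socs1, 16.8 and 31.9, were under the filter of 33.7, so it too was tested only through its HDM groups. Socs3 differed by 0.84 (adjusted p = 0.021) and 0.57 (adjusted p = 0.11).

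Among 8 other interferon regulatory factors, the same 3 rose in both genotypes: Irf4, Irf5 and Irf8, which act in lymphocytes, macrophages and dendritic cells. Irf4 rose by 1.72 in wild type and 2.24 in the KO, Irf5 by 0.59 and 0.77, and Irf8 by 0.60 and 0.64. Irf1, the factor most directly induced by interferon gamma, had group means of 517, 517, 452 and 539 and was not called. Upstream of interferon, Sting1 (the adaptor of DNA sensing) rose by 1.73 and 1.74 and Tlr8 by 0.71 and 0.67 in the 2 genotypes. In the KO, Myd88 rose by 0.50 and Tbk1, the kinase that activates IRF3, fell by 0.45.

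Of 62 further interferon-stimulated genes tested, 2 rose and 3 fell in wild type (8.06%) and 8 rose and 2 fell in the KO (16.1%), near the backgrounds of 11.9% and 12.6%. Gbp6 and Slfn2 rose in both, by 1.15 and 1.26 in wild type and 1.10 and 1.11 in the KO. Those that fell were Ifitm2, Lgals9 and Tdrd7 in wild type and Plscr1 and Ube2l6 in the KO. Ube2l6, which carries ISG15 to its ligases, fell by 1.12 in the KO (adjusted p = 0.0029), from 74.7, 64.7 and 79.0 in KO PBS to 28.5, 33.6 and 26.9 in KO HDM, the latter under the filter of 33.7.

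Of the interferon gamma signature, 8 of 15 tested genes rose in each genotype (53.3%) and none fell, where 6.02% of all tested genes rose in wild type and 6.6% in the KO. The 8 hold Cxcl9 in both genotypes and Socs1 in wild type, which passed the filter only through their HDM groups. The share is therefore not on equal terms with the background. The list was drawn up with results of these data known, and 4 more of its 21 genes were under the filter. Without the 3 samples with muscle signal, the 8 wild-type differences ran from 0.53 (B2m) to 1.79 (Cxcl9). Only 1 wild-type HDM sample is then left. B2m, Ciita, Cxcl9, Ifi30, Psmb8 and Tap1 rose in both, and they serve antigen presentation and T cell recruitment. Cxcl9, a T cell chemokine, read 22.2, 5.10 and 8.10 in wild-type PBS, 59.7, 68.2 and 65.7 in wild-type HDM, 4.60, 31.3 and 5.52 in KO PBS and 75.1, 116 and 81.3 in KO HDM. It rose by 2.03 (adjusted p = 0.0064) and 2.44 (adjusted p = 0.0018), without overlap in either genotype. All its PBS samples were under the filter of 33.7, so it was tested only through its HDM groups and the size of the difference is uncertain.

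Ifi30, a lysosomal thiol reductase, rose by 1.37 and 1.31, and Ciita, the master regulator of MHC class II genes, by 1.01 and 1.07. The median of the list was 0.44 in wild type and 0.51 in the KO, against -0.05 and 0.17 for the 30 members. Several of these genes are also abundant in antigen-presenting cells without interferon. Cxcl10 was under the filter, with group means of 18.5, 35.4, 17.3 and 44.0, and fitted without a filter it was called in the KO (1.07, adjusted p = 0.014) and not in wild type (0.75, adjusted p = 0.085). Of the other genes of the list under the filter, fitted in the same way, Cxcl11 (0.36 and 0.19) and Ido1 (0.06 and 0.32) were not called, and Nos2, with a mean of 5.81, was called in wild type (0.80, adjusted p = 0.028) and not in the KO (0.51, adjusted p = 0.15).

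**Figure D4:**
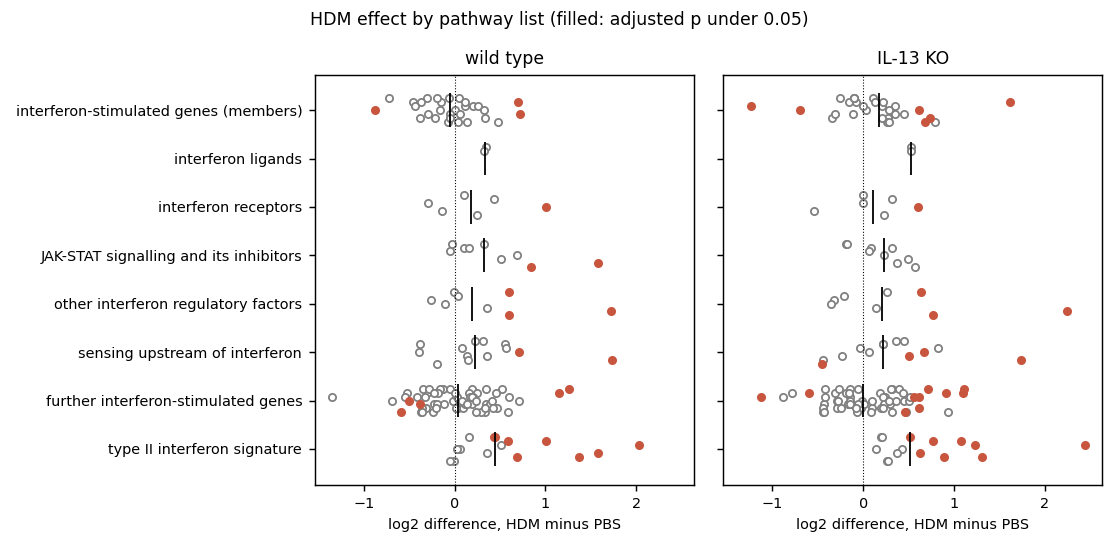
Log2 difference of HDM minus PBS (x axis) for every tested gene of the members and of 7 pathway lists (y axis) in wild type (left) and IL-13 KO (right); filled points have an adjusted p under 0.05 and vertical bars are medians. The interferon gamma signature has its median at 0.44 and 0.51, and the members at -0.05 and 0.17.

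Cell type markers moved with HDM as well. The summed signal of 9 monocyte and interstitial macrophage markers was 2542 to 3019 in wild-type PBS and 6703 to 7721 in wild-type HDM, and 2793 to 3161 in KO PBS and 6825 to 7335 in KO HDM. T cell markers (10 genes) summed to 905 to 1001 and 1256 to 1937 in wild type and to 1109 to 1292 and 1923 to 2161 in the KO, and B cell markers (9 genes) to 1325 to 1657 and 2650 to 4514, and 1923 to 2159 and 2951 to 3598. Alveolar macrophage markers (9 genes) summed to 1992 to 2374 and 6500 to 7133 in wild type and to 2412 to 2434 and 5584 to 6058 in the KO. Of these lists, all sums after HDM were above all sums after PBS in each genotype. Of 9 tested monocyte and interstitial macrophage markers, 4 rose in each genotype, and Cx3cr1 fell in the KO. Of 6 tested alveolar macrophage markers, 3 rose in each genotype, and Car4 fell in the KO. Chil3 is in both of these lists and rose in both genotypes. Itgax, an alveolar macrophage marker, was called in the interaction (-0.92, adjusted p = 0.029) and lower in the KO after HDM (-0.52, adjusted p = 0.040), where no member was called.

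Of the T cell markers, 5 of 10 rose in wild type and 6 of 10 in the KO, and of the B cell markers 7 of 9 and 3 of 9. NK cell markers (10 genes on the arrays) summed to 756 to 889 and 974 to 1022 in wild type and 961 to 1191 and 1252 to 1493 in the KO. Of 8 tested NK cell markers, Eomes and Gzmb rose in each genotype, and 4 had differences above 0 in each. Plasmacytoid dendritic cells, the main producers of type I interferon, had 11 markers on the arrays, which summed to 1606 to 1832 and 2014 to 2084 in wild type and to 1579 to 1812 and 2137 to 2258 in the KO. Bst2, a member, is among these 11, and 3 of 10 tested rose in each genotype (Cd209d, Lag3 and Spib).

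Summed endothelial markers (10 genes) moved the other way in wild type, from 10477 to 11178 after PBS to 6952 to 7412 after HDM. In the KO these sums went from 9591 to 10751 to 6980 to 7735. Of the 10 genes, 8 fell and Vwf rose in wild type, and 6 fell in the KO. Summed neutrophil markers (9 genes) did not separate in wild type (604 to 869 and 595 to 724). Their sums were lower after HDM in the KO (969 to 1031 and 752 to 843). Of 7 tested neutrophil markers, none was called in either genotype, and 3 had differences above 0 in each. The part of these cell types in the changes of Zbp1, Oas1a, Oas2, Igtp, Iigp1, Ifit2 and Rsad2 and in the interferon gamma signature was not tested.

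Xaf1, an interferon-stimulated gene outside the 35, was the only pathway gene called between the genotypes. Its probe set with the highest mean read 136 to 163 in wild-type PBS and 1526 to 1987 in KO PBS, a difference of 3.46 (adjusted p = 6.6e-08), and 3.32 after HDM (adjusted p = 1.0e-07). Its other probe set went the opposite way, lower in the KO, with differences of -2.54 after PBS (adjusted p = 0.0014) and -1.77 after HDM (adjusted p = 0.0052). Neither probe set was called with HDM.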

How the data were processed

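RNA of 12 lung samples was measured on 2 arrays each. The authors deposited linear intensities, 1 value for each probe set. They had been scaled: on all 24 arrays the 2% trimmed mean, computed from the values, was 150. No source used here names the software. Samples were grouped by their titles. The members and gene lists were chosen with earlier results of these data known.

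Intensities became log2(value + pseudocount), with a pseudocount of 7 (set A) and 11 (set B), the 10th percentile, which understates changes of low genes. Control probe sets and those with a mean under the 30th percentile (33.7 and 43.4) were left out, leaving 31511. Gene names came from the platform annotation. limma 3.58.1 in R 4.3.3 fitted 4 groups in each array set, with 8 residual degrees of freedom and an intensity trend, and p-values were adjusted by Benjamini-Hochberg over both sets at 0.05. Each gene was represented by its single-gene probe set with the highest mean. The fit was tested on simulated data.

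Sample values are given for up to 8 called members per comparison, or the 3 with the smallest p where fewer were called, and for up to 4 called genes per pathway list plus core genes of the pathway; other members are named to account for each, after their values were seen. Alternatives were other pseudocounts, no filter, quantile normalization, no trend, averaged probe sets, fewer samples, the replicate number as a block and, added after seeing the data, both sets in 1 fit. No detection calls were used. The number of arrays limits the precision.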

Additional observations from a re-analysis of the deposited data

How the results depend on the processing

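The HDM differences of the called members kept their sign under every alternative run. Some differences that were not called changed sign. In wild type without the 3 samples with muscle signal, Ifnar1 went from 0.11 to -0.36, Usp18 from -0.19 to 0.06 and Ifi35 from -0.06 to 0.11. In wild type, 3 members were called with HDM, 5 with the probe sets of a gene averaged and 0 to 3 when 1 sample was left out: 0 without wild-type PBS replicate 2 and 1 without wild-type HDM replicate 2. In the IL-13 KO 6 were called, and 2 to 6 with 1 sample left out: 2 without KO PBS replicate 3 and 3 without KO HDM replicate 2 or 3. After HDM the genotypes differed in 0 members, in 1 (Irf7) with averaged probe sets, and in 0 to 1 with 1 sample left out. Of the 113 other pathway genes, 20 were called in wild type, 11 without the 3 samples with muscle signal, 13 in the 6 samples alone, and 14 to 21 with 1 sample left out. In the KO the 26 calls ranged from 18 to 27 with 1 sample left out. Between genotypes 1 pathway gene (Xaf1) was called, 0 after PBS and 2 after HDM with averaged probe sets, and 1 to 2 after HDM with 1 sample left out. The cause of these shifts was not tested.

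The calls of Zbp1 and Rsad2 in the KO held in every alternative run. Oas2 and Ifit2 in wild type were each lost in 3 of 22, Oas1a and Igtp in the KO in 2 each, and Iigp1 in the KO in 8. The replicate number as a block gave 2 and 5 called members in place of 3 and 6, 0 in the other comparisons, and 18 and 28 pathway genes in place of 20 and 26. Samples with the same number did not deviate together: over 18 pairs the correlation ran from -0.051 to 0.182, 2 were above 0.1, and 5 of 12 samples correlated best with their own number. The fit of the 6 samples alone was not run for the interaction.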
